A study of Homo sapiens with 4 samples.

Results

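The PI3K-related kinases are a family of giant serine/threonine kinases, and the genes described here are its members other than MTOR: ATM, ATR, PRKDC, SMG1 and TRRAP, each with a very long mRNA. Members were taken as every probe set of the array whose platform annotation gives one of these symbols and no other gene. Of 54675 probe sets on the array, 14 met this rule: 6 for ATM, 3 each for ATR and PRKDC and 2 for TRRAP. SMG1 had none. The 4 probe sets that list SMG1 also list other genes (3 list BOLA2, 1 lists SMG1 pseudogenes with further genes), so no SMG1 value is given. The comparison was between RNA recovered with the fragile X protein FMRP and RNA of the lysate it was recovered from.

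Proteins of this family share a kinase domain that resembles that of the PI3K lipid kinases, set near the C-terminus behind a long array of helical HEAT repeats. ATM responds to DNA breaks and ATR to stretches of single-stranded DNA at stalled replication forks. PRKDC encodes the catalytic subunit of DNA-PK, which acts in joining of broken DNA ends. SMG1 phosphorylates UPF1 in nonsense-mediated mRNA decay, and TRRAP, whose kinase domain is inactive, is a scaffold of the SAGA and NuA4 histone acetyltransferase complexes. FMRP is an RNA-binding protein that associates with many mRNAs and is known as a regulator of their translation; loss of its gene product causes fragile X syndrome.

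All 4 samples came from a FlpIn T-Rex HEK293 stable cell line, a human embryonic kidney line carrying a transgene at an integration site, which encodes FlagHA-tagged FMRP here. The transgene was induced in all of them with doxycycline (1 µg/ml, 16 h). The lysate group is total RNA set aside before immunoprecipitation (n = 2), and the IP group is RNA recovered with the anti-FLAG M2 antibody (n = 2), with 1 Affymetrix human expression array for each sample. FMRP was therefore a tagged, induced protein in every sample, and no mock IP is among these samples. Of 6 genes known from HEK293 cells, 5 were above the array median (KRT8, KRT18, VIM, NEFL and PAX2; NEFM was below it), and of 7 measured markers of blood, liver, brain, islet, heart and endothelium 2 were above it, GFAP and PECAM1, the highest signal of either being 5.83. Whether the replicates came from separate cultures is not stated in the labels, so p-values measure only the spread between these arrays, which may be technical, and the number of arrays limits the precision.

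In the IP, mRNAs of all 4 measurable members were higher than in the lysate. TRRAP rose most, 3.48-fold, followed by ATR (2.30-fold), PRKDC (2.15-fold) and ATM (1.74-fold), each by the probe set with the highest mean signal of its gene. Values are log2 probe set signals as deposited, changes are IP minus lysate on that scale, and p-values are from limma fitted over 23534 probe sets (or 13165 genes, 1 probe set each) with Benjamini-Hochberg adjustment and a threshold of 0.05. A probe set was tested when its mean over the 4 arrays reached 4.69, which is the median over all probe sets that are not controls. This left 8 of the 14 member probe sets, 2 for each of the 4 genes. All 8 lay above that level on every lysate array too, the lowest at 5.09. On a scale where arrays are adjusted to one another, a rise means a larger share of the recovered RNA than of the lysate RNA, not an amount.

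TRRAP, the scaffold without kinase activity, had the largest change by its probe set of highest mean. Probe set 202642_s_at read 9.83 and 9.89 in the lysates and 11.59 and 11.72 in the IPs. Both IP arrays stood well above both lysate arrays, with a change of 1.80 (95% interval 1.51 to 2.09, adjusted p = 8.2e-05 over probe sets). The other TRRAP probe set, 214908_s_at, read 6.77 and 7.01 in the lysates and 8.22 and 8.29 in the IPs, a change of 1.36 (1.05 to 1.68, adjusted p = 1.7e-04). The intervals of the TRRAP probe sets overlapped. Only 1.53% of the 13165 genes had a change as high as that of TRRAP or higher.

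ATR, the replication stress kinase, was higher by both tested probe sets. With 209902_at the lysates read 6.87 and 6.67 and the IPs 8.34 and 8.35, a change of 1.58 (1.27 to 1.88, adjusted p = 1.0e-04). With 209903_s_at the lysates read 8.25 and 8.07 and the IPs 9.21 and 9.51, a change of 1.20 (0.85 to 1.56, adjusted p = 4.5e-04). The IP arrays differed from each other by more with 209903_s_at (SD 0.22) than with 209902_at (SD 0.01), and the groups did not overlap with either.

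PRKDC rose about as much as ATR by the probe set of highest mean of each gene (1.11 and 1.20). By the other tested probe set of each it rose less (0.84 and 1.58). Probe set 208694_at gave 11.16 and 11.14 in the lysates and 12.27 and 12.24 in the IPs, the tightest replicates among the 8 probe sets when both groups are considered (SD 0.02 in each). Its change was 1.11 (0.83 to 1.38, adjusted p = 2.2e-04). Probe set 210543_s_at gave 10.03 and 9.84 in the lysates and 10.82 and 10.74 in the IPs, a change of 0.84 (0.54 to 1.14, adjusted p = 0.00112). Again both IP arrays lay above both lysate arrays.

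ATM, the kinase activated at DNA breaks, had the widest range among its own probe sets. With 212672_at the lysates read 5.70 and 5.38 and the IPs 6.34 and 6.34, a change of 0.80 (0.46 to 1.14, adjusted p = 0.0025). With 210858_x_at the lysates read 5.11 and 5.09 and the IPs 6.39 and 6.82, a change of 1.50 (1.12 to 1.89, adjusted p = 2.5e-04), or 2.84-fold in place of 1.74-fold. The suffix x marks a probe set that can bind transcripts of other genes. The gene-level ATM value is that of 212672_at, which was taken for its higher mean over the 4 arrays (5.94 against 5.85). IP replicates 1 and 2 differed for 210858_x_at, at 1.29 and 1.72 above the lysate mean.

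**Figure D1:**
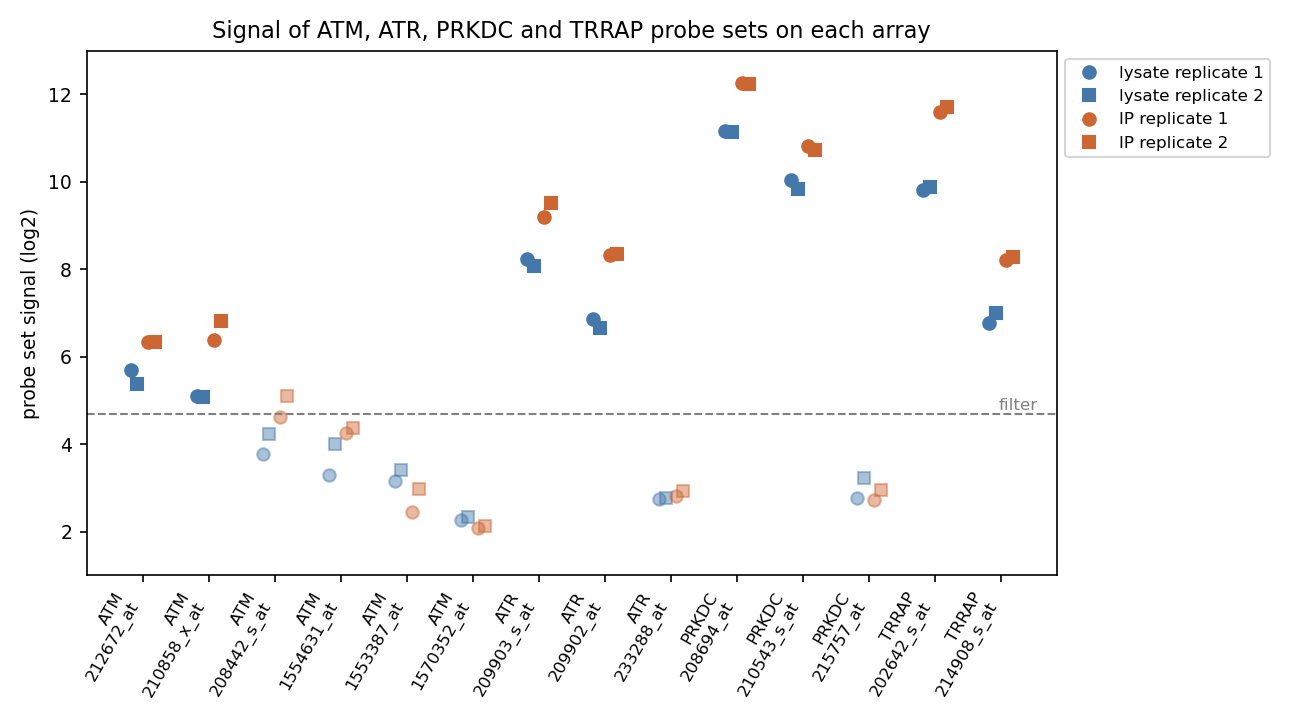
Log2 signal of the 14 probe sets of ATM, ATR, PRKDC and TRRAP on each of the 4 arrays (blue, lysate; orange, IP; circles, replicate 1; squares, replicate 2), with the level of the filter, 4.69, as a dashed line and faint points for the 6 probe sets under it. All 8 probe sets over the line have both IP points above both lysate points.

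The other 6 member probe sets lay under the filter, with means over the 4 arrays of at most 4.43, where no floor is known, and were not tested. Their changes ran from -0.57 to 0.86. For 3 of them both IP arrays were above both lysate arrays, for 2 both were below, and for 1 (PRKDC 215757_at) the groups overlapped. ATM 208442_s_at was the closest to the filter: it read 3.77 and 4.22 in the lysates and 4.62 and 5.10 in the IPs. With no filter on the level, it was the only one of the 6 called (0.86, adjusted p = 0.0374), beside the same 8. The probe sets in the opposite direction, ATM 1553387_at and ATM 1570352_at, had the IP means 2.71 and 2.10.

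Across the array, being higher in the IP was common. Of all tested probe sets 33.2% were called higher, and 44.0% had both IP arrays above both lysate arrays, against 8 of 8 tested member probe sets by either count. Of all genes 35.0% were called higher and 28.8% lower, against 4 and 0 of the 4 measurable member genes. A higher call with a rise of at least 2-fold was made for 12.4% of genes and for 3 of the 4 members, ATM being the exception. This depends on the probe set taken for the gene: ATM rose 2.84-fold by 210858_x_at, and PRKDC 1.79-fold by 210543_s_at. The median change of all genes was 0.08, with quartiles of -0.48 and 0.61, and each member lay above the upper quartile. Changes as high or higher were seen in 8.29% of genes for ATR, 10.1% for PRKDC and 18.4% for ATM.

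The order TRRAP, ATR, PRKDC, ATM is only partly resolved. The gene-level 95% intervals were 1.52 to 2.07 for TRRAP, 0.86 to 1.54 for ATR, 0.84 to 1.37 for PRKDC and 0.47 to 1.13 for ATM, so each neighbour overlapped the next, while TRRAP did not overlap PRKDC or ATM. ATR and PRKDC differed by 0.09 in their gene-level change, while their other tested probe sets changed by 1.58 and 0.84. The per-array gap between TRRAP and ATM widened by 1.00 from lysate to IP, but with 2 arrays against 2 an exact permutation test (two-sided) cannot go below p = 0.333, which is what it gave. The order also depends on the probe set. ATM by 210858_x_at (1.50) would stand above PRKDC and above ATR by 209903_s_at (1.20), but below ATR by 209902_at (1.58). TRRAP by 214908_s_at (1.36) would stand below both ATM 210858_x_at and ATR 209902_at.

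**Figure D2:**
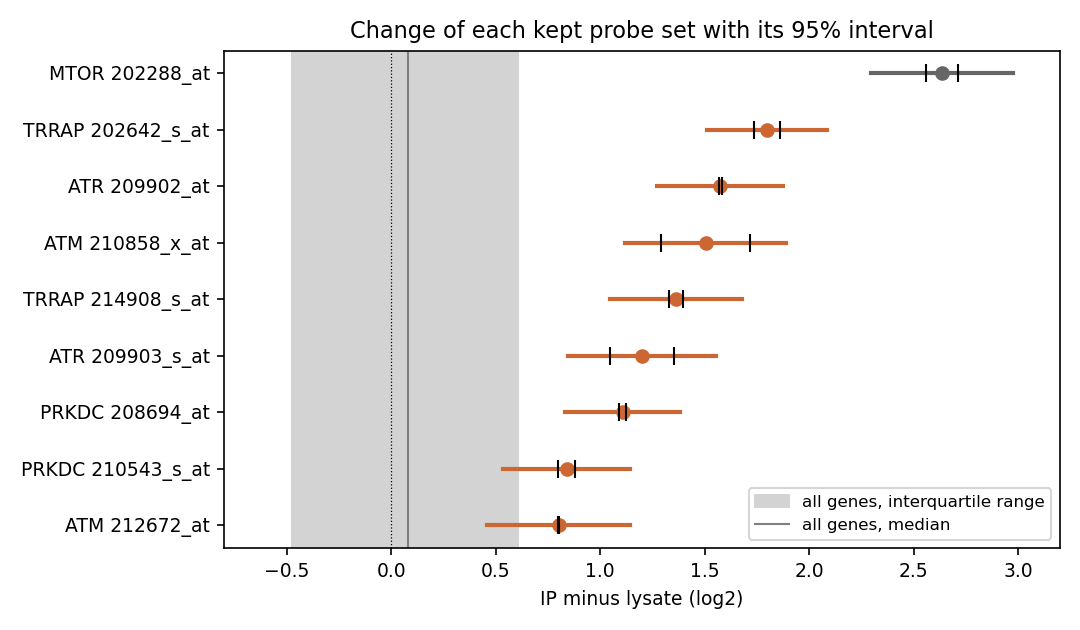
IP minus lysate (log2) of the 8 tested member probe sets and of MTOR, with 95% limma intervals as horizontal lines and ticks for IP replicates 1 and 2 each against the lysate mean; the grey band spans the quartiles of all genes, -0.48 to 0.61, and the grey line is their median, 0.08. All 8 member points lie to the right of the band, from 0.80 to 1.80, and MTOR lies further right at 2.64.

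The size of these rises depends on what the arrays are scaled to. The hybridization controls, bacterial and phage transcripts added in fixed amount after labelling, were 0.48 higher on the IP arrays. When these 18 controls were used to centre each array, by their median, the median change of all genes moved to -0.40, 15.9% of genes were called higher and 48.5% lower. On that scale and by the probe set of highest mean, TRRAP (1.32), ATR (0.72) and PRKDC (0.63) were still called higher. Of these 1, TRRAP, rose by at least 2-fold, in place of 3. ATM by 212672_at, at 0.32 with an adjusted p of 0.155 over genes, was not called, and neither was PRKDC 210543_s_at (0.36, adjusted p = 0.107 over probe sets), which left 6 of 8 probe sets. The remaining tested probe sets were called higher: ATR 209902_at changed by 1.10, ATM 210858_x_at by 1.02 and TRRAP 214908_s_at by 0.88.

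Probe sets for the ends of a control transcript differed between the groups. Labelling of this kind starts at the poly(A) tail, and the gap between the 3' and 5' probe sets of ACTB and GAPDH reports how far along an mRNA the labelled copies reach. The ACTB gap was 1.37 and 1.34 in the lysates and 3.02 and 2.96 in the IPs. The GAPDH gap was 0.19 and 0.19 in the lysates and 0.94 and 1.03 in the IPs. Both gaps were larger on the IP arrays, and the part of this in the changes of the members, whose mRNAs are far longer, was not tested; where along the mRNAs the member probe sets lie was not analysed here.

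**Figure D3:**
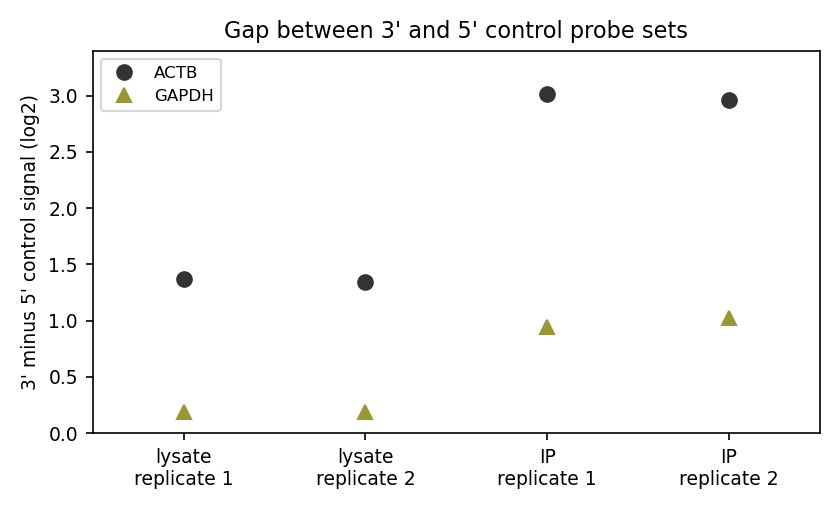
Signal of the 3' control probe set minus that of the 5' one (log2) for ACTB (circles) and GAPDH (triangles) on each array. The IP arrays lie at 2.96 to 3.02 for ACTB and 0.94 to 1.03 for GAPDH, above the lysate arrays at 1.34 to 1.37 and 0.19.

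Among genes with a related kinase domain, most were higher in the IP as well, against 35.0% of all genes called higher and 28.8% lower. MTOR, the remaining member of the family and the nutrient-sensing kinase, changed by 2.64, from 6.64 and 6.92 to 9.34 and 9.49 (95% interval 2.31 to 2.96), a value that 0.0836% of genes reached. Its interval lies above those of the 4 members. The per-array gap between MTOR and the mean of the 4 members rose by 1.41 from lysate to IP (exact permutation test, two-sided, p = 0.333, the smallest possible), and its other probe set, under the filter, changed by -0.25. Of 7 measured PI3K and PI4K lipid kinase genes 6 were called higher and none lower, with a median of 1.24; PI4KA, which makes phosphatidylinositol 4-phosphate at the plasma membrane, changed by 1.87 and PI4KB, its Golgi counterpart, by 1.46 (0.62 and 0.95 by the remaining PI4KB probe sets). The gene not called, named after its value was seen, was PIK3C2A (-0.27, adjusted p = 0.166), named after its value was seen.

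Genes of similar protein size but another function were also mostly higher. Of 6 measured giant E3 ubiquitin ligase genes 5 were called higher and none lower, against 35.0% and 28.8% of all genes. Their median was 1.42. HERC2 changed by 1.97 and UBR4 by 1.88, with another UBR4 probe set at -0.08. HUWE1, named after its value was seen, stood at -0.17 (adjusted p = 0.384) by an x probe set, while its other tested probe sets changed by 0.76, 1.20 and 1.80. With hybridization control centring 4 of the 7 lipid kinase genes and 4 of the 6 ligase genes were called higher, and 1 of each was called lower. On that scale 15.9% of all genes were called higher and 48.5% lower.

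Of 84 measured genes for the partners of these kinases 44 (52.4%) were called higher and 22 (26.2%) lower, against 35.0% and 28.8% of all genes. Their median was 0.41, against 0.08 for all genes. With hybridization control centring 22 of the 84 were called higher and 34 lower, with a median of -0.07. On that scale 15.9% of all genes were called higher and 48.5% lower, with a median of -0.40. The partner lists follow textbook pathway membership.

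Most genes of the machinery that assembles the family rose. Newly made PI3K-related kinases are stabilized by the TTT complex (TELO2, TTI1, TTI2) with the R2TP complex and HSP90. Of 9 genes 7 were called higher and 1 lower (median 0.84), against 35.0% and 28.8% of all genes. With hybridization control centring 5 were called higher and 1 lower (median 0.37), against 15.9% and 48.5% of all genes. The HSP90 gene HSP90AB1 changed by 1.19 (1.36 and 1.75 by the remaining probe sets), and TELO2 by 0.98 (0.56 by the second one). PIH1D1, an R2TP subunit, fell by 0.50 (adjusted p = 0.0103) and was not called without lysate replicate 2 (-0.39).

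The nonsense-mediated decay genes around SMG1 also mostly rose, although SMG1 itself could not be read. Of 10 measured genes 9 were called higher and 1 lower (median 0.87), against 35.0% and 28.8% of all genes. With hybridization control centring 5 were called higher and 1 lower (median 0.39), against 15.9% and 48.5% of all genes. UPF1, the helicase that SMG1 phosphorylates, read 7.98 and 8.13 in the lysates and 9.55 and 9.41 in the IPs, a change of 1.42; the second UPF1 probe set stood at 2.22. The helicase gene DHX34 changed by 1.42, or 0.64 by the second probe set. UPF2, which binds UPF1 and is named after its value was seen, changed by 1.35. MAGOHB, an exon junction complex gene, fell by 0.81, or by 1.61 with the second probe set. RBM8A, another exon junction gene and also named after its value was seen, was called higher by 1 probe set (0.71), but its other 4 probe sets changed by -0.91 to -1.66.

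Among genes acting with the DNA damage kinases, as among all genes (35.0% higher and 28.8% lower), calls were made in both directions. In the ATM list 5 of 11 were called higher and 2 lower (median 0.26, or 0.14 without IP replicate 1). TP53BP1, a break-site adaptor, changed by 1.47, or by 0.27 and 0.62 with the remaining probe sets, and RAD50, the long coiled-coil ATPase of the MRN complex, by 1.25. NBN, of the same complex, fell by 0.49 and was not called without lysate replicate 1 (-0.43) or without IP replicate 2 (-0.41). Without either of those arrays no gene of this list was called lower, and without IP replicate 1 only 1 was.

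In the ATR list 7 of 15 were called higher and 5 lower, against 35.0% and 28.8% of all genes. The median was 0.36, or 0.08 without lysate replicate 1. The subunits of RPA, the single-stranded DNA binding trimer, went apart. RPA1, the large subunit, read 10.48 and 10.39 in the lysates and 12.12 and 12.05 in the IPs, a change of 1.65. By the remaining RPA1 probe sets the change was 1.01 and 1.85. RPA3, the small subunit, read 10.47 and 10.47 in the lysates and 9.14 and 9.28 in the IPs, a change of -1.26. RPA2, the remaining subunit and named after its value was seen, was also called lower (-0.50). TIMELESS, a fork protection factor, changed by 1.64. CHEK1, the kinase downstream of ATR, named after its value was seen, changed by -1.18, with other probe sets from -0.27 to -0.47.

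In the DNA-PK list 3 of 9 were called higher and 3 lower (median 0.31), which is 33.3% each way and near the shares of all genes. The Ku subunit genes XRCC5 and XRCC6, whose products bring PRKDC protein to DNA ends, changed by 0.95 and 0.76, with another XRCC5 probe set at 0.66. PAXX, a small accessory factor, fell by 0.70. Without lysate replicate 1, 5 genes of this list were called higher and its median was 0.50; without lysate replicate 2 its median was 0.11. The medians of the ATM, ATR and DNA-PK lists turned to -0.22, -0.12 and -0.17 with hybridization control centring. The median of all genes was then -0.40.

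The lists for the complexes around TRRAP also held calls in both directions, as did all genes (35.0% higher and 28.8% lower). In the SAGA list 8 of 15 were called higher and 3 lower (median 0.42). TADA2B, an adaptor subunit, rose most, by 2.29 with an x probe set (1.44 by the second probe set), and TADA3 changed by 0.99. TADA1, a subunit of the structural core of SAGA, fell from 8.95 and 9.23 in the lysates to 7.53 and 6.74 in the IPs, a change of -1.96. Without lysate replicate 1 only 1 gene of this list was called lower. In the NuA4 list 5 of 15 were called higher and 7 lower (median -0.10, or 0.02 without lysate replicate 2 and -0.24 with lysate replicate 1 or IP replicate 2 left out). MEAF6 fell by 1.14 and MBTD1 by 0.95, whereas DMAP1 changed by 1.32. EP400, the large ATPase of NuA4, named after its value was seen, changed by 1.25, and its other 3 probe sets by 1.22 to 1.42. With hybridization control centring the SAGA list had 2 higher and 6 lower genes (median -0.06) and the NuA4 list 3 and 10 (median -0.58). On that scale the median of all genes was -0.40, with 15.9% called higher and 48.5% lower.

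The list values moved with the choice of probe set and filter. When each gene was given the mean of its tested probe sets, the median was 0.23 for all partner genes, 0.14 for the DNA-PK list and 0.11 for the SAGA list, with 6 SAGA genes lower, 3 NuA4 genes higher, 1 gene of the ATM list lower and 2 decay genes lower. Unique probe sets are here those with the plain suffix _at, without a letter such as s or x before it. Those left out also carry 1 gene symbol each. With unique probe sets the median was 0.61 for the 4 ATM list genes left, 0.22 for SAGA, -0.43 for NuA4 and 0.68 for the lipid kinases, and 3 of 6 decay genes were higher and 2 lower. With no filter the lipid kinase median was 0.41 over 9 genes, and with a filter at a mean of 6 the ATR list median was 0.19.

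**Figure D4:**
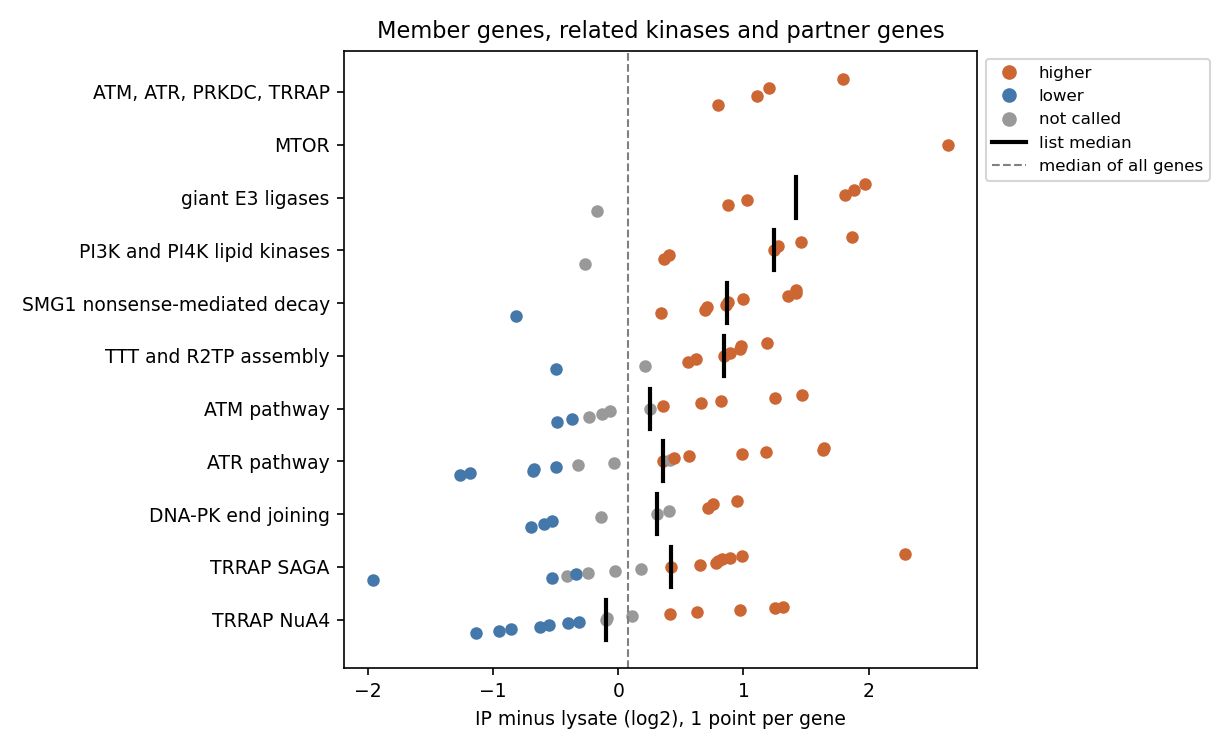
IP minus lysate (log2) of the 4 member genes, MTOR, lipid kinases, giant E3 ligases and 7 partner lists, 1 point per gene, coloured by the limma call at an adjusted p of 0.05; black bars are list medians and the dashed line is the median of all genes, 0.08. The member genes lie from 0.80 to 1.80, while the TRRAP NuA4 list runs from -1.14 to 1.32 and the SAGA list from -1.96 to 2.29.

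The genes with the values most like those of each member were found by the Euclidean distance over the 4 arrays after each gene was centred on its own mean. With 4 arrays this mainly finds genes with the same change. EIF4G1, the translation initiation scaffold, was nearest to PRKDC at a distance of 0.01, with SLIT2 next at 0.02. GPRIN1 and FRAS1 were nearest to TRRAP (0.02 and 0.03), EIF2AK4 and BMS1P20 to ATR (0.04 and 0.05), and SMC1A and COPB2 to ATM (both 0.04).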

How the data were processed

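The authors deposited log2 probe set signals; that the scale is log2 was inferred from the value range. Array medians of 4.67 to 4.71 show that the arrays had been scaled to one another, by steps not given in the sources used. Members, lists and tests were chosen with earlier results of these data known. The platform annotation gave 41091 of 54675 probe sets exactly 1 gene symbol, 1801 several and 11721 none, and 62 were controls. For 41037, current symbols were taken from the GRCh38.p14 RefSeq table by Entrez number. Group differences were estimated by limma 3.58.1 (R 4.3.3; lmFit and eBayes without covariates, 2 residual degrees of freedom), once over probe sets with 1 symbol and once over genes, each represented by its probe set of highest mean. The fit was also run on simulated data with independent noise and few changed probe sets. That setting is unlike these data, where many were called, so it does not show how the fit does here. Exact permutation tests used scipy 1.17.1, and figures matplotlib 3.10.9.

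Named genes followed a rule: all members and MTOR; in each list the 2 called genes that changed most in the sense of the list's median and the 1 that changed most in the opposite sense, with 1 more where a single gene carried that median; for each member the 2 genes nearest in values. Any other gene is marked as named after its value was seen. The alternatives were on normalization, filter, spread estimate, threshold, choice of probe set, a replicate block and leaving out each array. A comparison by protein length was planned and not run.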

Additional observations from a re-analysis of the deposited data

How the results depend on the processing

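Under every alternative run, no member probe set and no member gene was called lower, and TRRAP, ATR and PRKDC were called higher at the gene level wherever they were tested. Leaving out any of the 4 arrays kept 8 of 8 probe sets and 4 of 4 genes called, but such a fit leaves 1 array in a group, which is assumed to vary like the other group, so this says little about stability. With a filter at a mean of 6, ATM was not tested, and with unique probe sets TRRAP was not, as its probe sets carry the suffix s. With hybridization control centring, counts moved to 2090 higher and 6388 lower for all genes (4611 and 3791 as reported) and to 22 higher and 34 lower for partner genes; 2 comparison genes were called lower in place of 0. With unique probe sets, 25 of 59 partner genes were higher in place of 44 of 84, where fewer genes were tested. Medians that turned under hybridization control centring were those of all genes (-0.40), all partner genes (-0.0712), the ATM (-0.22), ATR (-0.12), DNA-PK (-0.17) and SAGA (-0.0556) lists. HUWE1 was 0.90 with the mean of its probe sets and 1.80 with unique ones, and RBM8A was -0.85 and -1.42. CLSPN, an ATR list gene named after its value was seen and called higher at 0.44, stood at -0.0347 with hybridization control centring, at 0.36 and not called without lysate replicate 2, and at 1.24 with the mean of its probe sets; its second probe set changed by 2.03. The cause was not tested; further list values stand in the report. With the replicate block, 4731 genes were higher and 3868 lower, and no member call changed; same-numbered arrays' deviations correlated at 0.10 across genes, over too few pairs to show pairing. The comparison by protein length, with its alternatives, was not run because no protein table was used here. The number of arrays limits the precision of every value.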
